A study of Mus musculus with 21 samples.

Results

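Fbxl19-only edge peaks are sites where tagged Fbxl19 was listed in the strongly overexpressing clone, without Rnf20 and without Fbxl19 in the weakly expressing clone, at the end of a domain of ubiquitinated histone H2B. A peak of the OE-high Fbxl19 list was taken if it overlapped (by 1 bp or more) no OE-low Fbxl19 peak and no Rnf20 peak, overlapped a domain of the OE-high H2Bub1 list, and had its midpoint at most 1000 bp from the nearest end of any domain of that list. Of the 13669 OE-high Fbxl19 peaks, 2294 (16.8%) met this rule. On the way, 9526 peaks had neither an OE-low nor an Rnf20 peak, and 4714 of these lay in an OE-high domain. The rule used the OE-high Fbxl19, OE-low Fbxl19, Rnf20 and OE-high H2Bub1 lists. What those lists say of the edge peaks is therefore description, and the other 4 H2Bub1 lists give the comparisons.

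All samples came from J1, a pluripotent mouse embryonic stem (ES) cell line, and chromatin immunoprecipitation was followed by sequencing (ChIP-seq). The OE-high cells carried flag-biotin tagged Fbxl19 at more than 5 times the endogenous level, per the series' design text, and gave 2 Fbxl19 pulldown samples and 3 H2Bub1 samples. The OE-low cells expressed the tagged protein below the endogenous level in J1 cells containing BirA, a biotin ligase, and gave 2 Fbxl19 pulldown samples. The single Rnf20 pulldown also came from J1 cells with BirA. Streptavidin beads captured both Fbxl19 and Rnf20, and an antibody captured H2Bub1. Further H2Bub1 samples were 2 of differentiated Fbxl19 knockdown cells, 2 of differentiated cells, 2 of Fbxl19 knockdown ES cells and 3 of ES cells. Differentiation is named as day 4 in the list names. The sources used here do not give how cells were knocked down or differentiated. OE-high and OE-low are selected clones, so what belongs to the clone and what to the Fbxl19 level cannot be told apart. The H2Bub1 and Fbxl19 samples of OE-high cells share that limit.

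Fbxl19 combines an F-box with a zinc finger of the CXXC type, which recognises CpG without methylation and so brings its carriers to CpG islands, the CpG-rich stretches at most promoters of widely used genes. Rnf20 is an E3 ligase that attaches a single ubiquitin to histone H2B. The product, H2Bub1, is laid down as RNA polymerase II transcribes and is known to cover the bodies of active genes, starting close behind the promoter. The question in the title of the series is recruitment of Rnf20 to CpG islands by Fbxl19 and its effect on H2Bub1.

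There were 8 peak or domain lists, all named as combined over replicates except that of Rnf20, which came from 1 library. No replicate values were analysed here, so differences have no spread between samples beside them and no p-value. Each share has an exact Clopper-Pearson 95% interval, and each difference of shares an interval made of both. These cover counting error alone, and depth per sample is unknown. The H2Bub1 lists differed in size, with 7216 domains in OE-high, 1090 in differentiated knockdown, 5125 in differentiated, 1813 in knockdown ES and 2937 in ES cells. A number followed by M stands in their track lines, 46 for OE-high, 41 for differentiated knockdown, 36 for differentiated, 46 for knockdown ES and 60 for ES cells, with no word on what it counts. No expression data were used, so neither the cell state nor the Fbxl19 level could be checked. Genes, promoters and CpG islands were not assigned and no sequence is shown, since no mm9 annotation or sequence was used here.

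The edge peaks sat closely on the domain ends. Their midpoints lay a median of 139 bp from the OE-high end (quartiles 66.5 to 264 bp), 1481 of them (64.6%) within 200 bp and 2079 (90.6%) within 500 bp. The rule allowed 1000 bp inward of the end, but outward only as far as the peak still overlapped the domain. In 2014 (87.8%) the end fell within the peak itself, and in the other 280 the whole peak lay inside the domain. The midpoint was inside the domain in 1547 (67.4%) and beyond its end in 742 (32.3%), and the median midpoint lay 85.2 bp inward. Peaks with a midpoint beyond the end had to span it to overlap the domain, so these shares follow in part from the rule. Summits lay a median of 24.0 bp inward. Left and right ends were used about equally, with 1137 and 1157 peaks. Fbxl19 peaks with an OE-low or Rnf20 partner gathered at OE-high ends too. Of these, 11.0% had a midpoint in the 200 bp just inside the nearest end, against 9.21% of peaks with neither partner. In the 200 bp just outside it the shares were 7.30% and 6.39%.

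**Figure D1:**
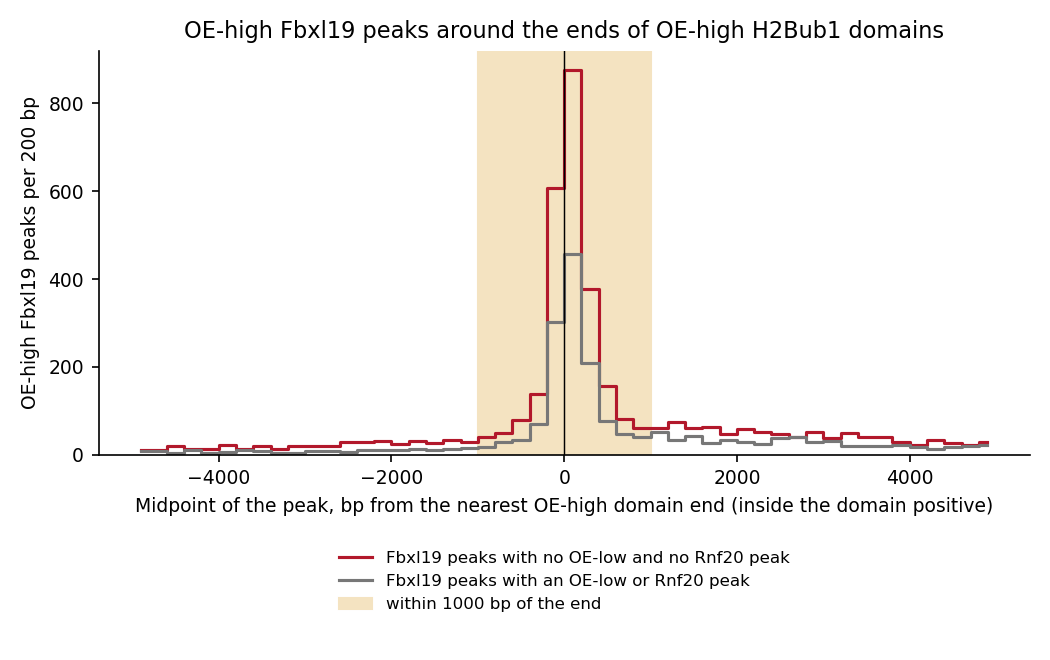
Number of OE-high Fbxl19 peaks per 200 bp (y axis) by the distance of their midpoint from the nearest OE-high H2Bub1 domain end in bp (x axis, inside the domain positive), for peaks with neither an OE-low nor an Rnf20 peak (red) and peaks with either (grey). The band marks 1000 bp on each side, and the red line reaches 876 peaks in the 200 bp just inside the end and 608 in the 200 bp just outside it, against 62 between 1000 and 1200 bp inward.

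The limit of 1000 bp ran through a sparse stretch of that distribution. Among all peaks with neither partner, 60 had a midpoint 800 to 1000 bp inward of the nearest end and 62 had one 1000 to 1200 bp inward. The edge peaks just inside the limit were chr14:55482274-55483327, at 998.5 bp, with a first score of 13.6, and chr1:183958778-183959237, at 991.5 bp, with a first score of 8.84. Just outside it were chr14:6169761-6170232, at 1002.5 bp and a first score of 4.06, and chr13:70776276-70777310, at 1006 bp and a first score of 8.22.

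The 2294 peaks marked 2273 of the 14432 OE-high domain ends (15.7%), belonging to 2228 of the 7216 domains (30.9%). Of these domains 2164 carried 1 edge peak, 62 carried 2 and 2 carried 3, and only 45 (2.02%) had one at both ends. Where the other end had no edge peak, it held a Fbxl19 peak with an OE-low or Rnf20 partner in 65 of 2183 cases (2.98%). Of all 14432 OE-high ends, 8.40% held a peak with such a partner. These domains were therefore mostly marked at a single end, in a list where few ends were marked at all. Whether marks at a single end were more frequent than such sparse marking gives was not tested. Domains with an edge peak had a median length of 23000 bp and a median score of 12.0, against 21000 bp and 11.4 for the other 4988 domains, with quartiles of length that overlapped widely (10800 to 46000 bp against 9200 to 44600 bp). An ES domain was met by 35.0% of the domains with an edge peak (interval 33.0 to 37.0) and by 34.7% of the others (interval 33.4 to 36.0).

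In the authors' own scores the edge peaks lay near the middle of their list. The first score, which resembles a fold enrichment although the files do not say so, had a median of 10.4 in edge peaks (range 3.33 to 48.6), against 10.7 in all OE-high Fbxl19 peaks. Fbxl19-only peaks inside OE-high domains, over 1000 bp from any end (inner peaks, 2420), had 10.1. Fbxl19-only peaks outside OE-high domains (outlying peaks, 4812) had 10.1 as well. OE-high Fbxl19 peaks at OE-high ends by the same distance rule but with an OE-low or Rnf20 partner (partnered edge peaks, 1213) had 12.5. Edge peaks were long, with a median of 773 bp, against 635 bp in inner, 862 bp in partnered edge and 451 bp in outlying peaks and 625 bp in all. Interquartile ranges of length overlapped between edge peaks (580.2 to 1050 bp) and inner peaks (424 to 929 bp). Length takes part in the rule. A Fbxl19-only peak with its midpoint beyond an end was an edge peak only if it reached the domain, and an outlying peak otherwise. The differences in length therefore follow in part from the rule.

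The Rnf20 list took part in the choice of these peaks, so its distance to them is given as a description. The nearest Rnf20 peak lay a median of 75802 bp away, against 40738 bp for inner and 77366 bp for outlying peaks. Within 5000 bp there was one at 122 edge peaks (5.32%), against 15.8% of inner and 8.73% of outlying peaks. An Rnf20 peak anywhere in the domain was present in 15.4% of domains with an edge peak (interval 13.9 to 16.9), against 39.0% of the other domains (interval 37.6 to 40.3), and an OE-low Fbxl19 peak in 6.15% (interval 5.19 to 7.23) against 15.2% (interval 14.2 to 16.3). The rule takes part in all of these values, since it leaves out peaks that touch Rnf20 or OE-low Fbxl19.

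The 5 edge peaks with the highest first score were all at an end in differentiated cells too. The highest, 48.6, belonged to chr5:29760949-29761977, whose OE-high domain chr5:29761200-29780399 began inside the peak. The differentiated domain (to 29773199), the knockdown ES domain (to 29769399) and the ES domain (to 29769199) began at the same position, 29761200, and no differentiated knockdown domain was listed. At chr5:130554696-130555681 (41.2) and chr5:138124874-138126343 (36.7) a domain end was listed in OE-high and in differentiated cells, and none in both knockdown lists or in ES cells. At chr1:23928453-23929502 (38.8) the OE-high domain chr1:23898600-23929199 and the differentiated domain chr1:23898400-23929199 ended at the same position, and the ES domain chr1:23913800-23929399 ended 1 grid step further out and was shorter at its other end. The fifth, chr16:20672605-20673411 (33.0), lay at an end in OE-high, differentiated knockdown and differentiated cells, and in no domain of the knockdown ES or ES list.

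Most edge peaks lay at a domain end in differentiated cells too, and fewer did so in undifferentiated cells without overexpression. Such an end was counted where the peak overlapped a domain and its midpoint was within 1000 bp of the nearest listed end. In the differentiated knockdown list 231 edge peaks (10.1%, interval 8.87 to 11.4) were at an end, where 5.59% of all OE-high Fbxl19 peaks were. In the differentiated list the number was 1485 (64.7%, interval 62.7 to 66.7), where 21.7% of all were. The knockdown ES list had 348 (15.2%, interval 13.7 to 16.7), where 6.88% of all were, and the ES list 595 (25.9%, interval 24.2 to 27.8), where 11.0% of all were. Thus in each of the 4 lists the share among edge peaks was above that of the whole Fbxl19 list. The whole list includes the 4812 outlying peaks, which the rule leaves out for lying outside OE-high domains. Of these, between 0.353% (differentiated knockdown) and 3.60% (differentiated) were in a domain of the other lists. Part of the excess over the whole list, at an end and in a domain, therefore follows from the rule. Being in a domain at all gave 10.5% in differentiated knockdown (7.21% of all), 68.6% in differentiated (37.4% of all), 19.9% in knockdown ES (14.5% of all) and 31.2% in ES cells (21.2% of all).

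**Figure D2:**
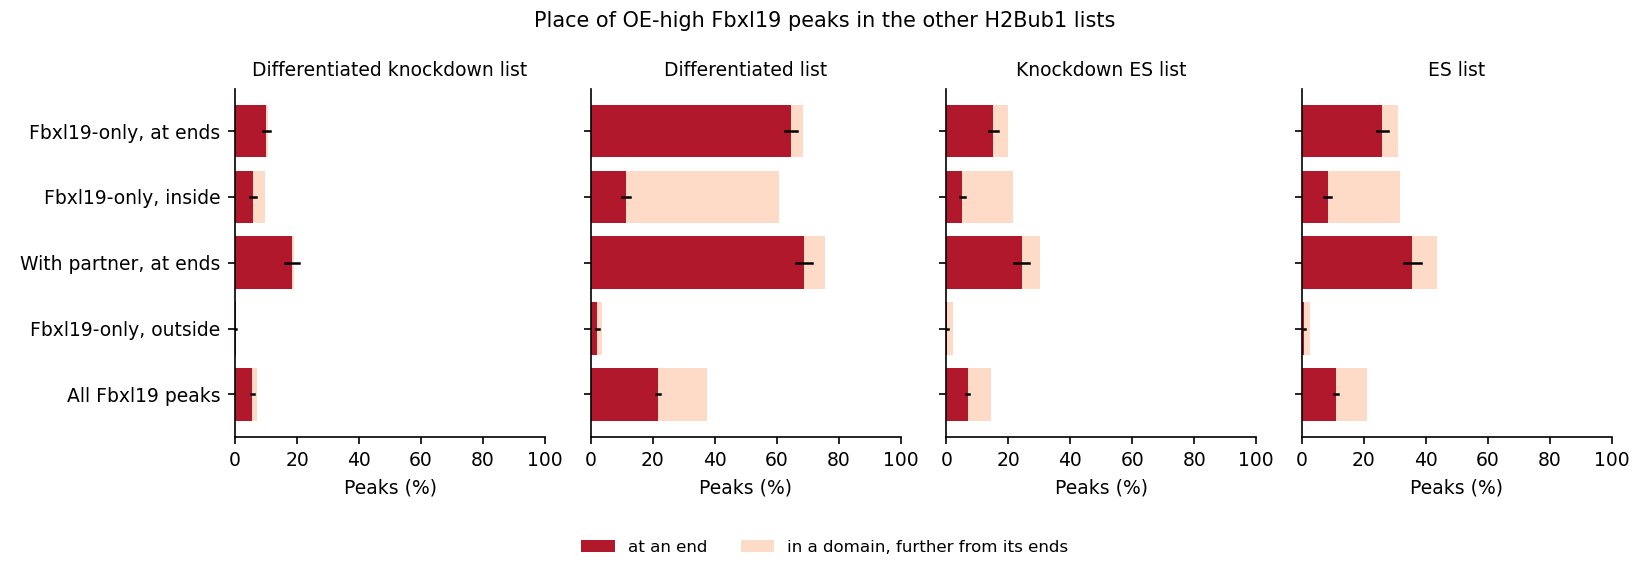
Share of OE-high Fbxl19 peaks in percent (x axis) that lay at an end (dark red) or further inside (pale) of a domain in the 4 H2Bub1 lists the choice of peaks did not use, for edge peaks, inner peaks, partnered edge peaks, outlying peaks and all OE-high Fbxl19 peaks (top to bottom). Black lines are exact 95% intervals of the share at an end, and edge peaks reach 64.7% in the differentiated list, against 25.9% in the ES list.

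Edge peaks were at an end more often than inner peaks in each of the 4 lists, while for being in a domain at all the interval of the difference lay above 0 in the differentiated list alone. In the ES list 31.2% of edge and 31.7% of inner peaks were in a domain, a difference of -0.526 percentage points (interval -3.20 to 2.16). At an ES end the shares were 25.9% and 8.39%, a difference of 17.5 points (interval 15.4 to 19.7). For the differentiated list the difference at an end was 53.4 points (interval 51.0 to 55.7), and in a domain 7.91 points (interval 5.15 to 10.7). The knockdown ES list gave 9.92 points at an end (interval 8.18 to 11.7) and -1.65 in a domain (interval -3.99 to 0.698). The differentiated knockdown list gave 4.45 (interval 2.89 to 6.03) and 0.834 (interval -0.912 to 2.59). Inner peaks were chosen away from OE-high ends, so part of the difference at ends follows from how far the lists share their ends. With only the top 50% of each H2Bub1 list by score, the ES difference in a domain was 4.64 points (interval 1.42 to 7.87), and with 50% of the peak to be covered the differentiated one was 2.28 (interval -0.909 to 5.46).

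Partnered edge peaks were at an end in the other lists more often than edge peaks. The difference, edge minus partnered, was -8.23 points in differentiated knockdown (10.1% against 18.3%, interval -10.8 to -5.73), -9.15 in knockdown ES (15.2% against 24.3%, interval -12.1 to -6.31) and -9.76 in ES cells (25.9% against 35.7%, interval -13.1 to -6.49). In the differentiated list it was -4.10 (64.7% against 68.8%, interval -7.38 to -0.776), and there the interval reached 0 in 3 of the alternatives, with values of -3.86, -1.27 and -1.49. Of the peaks in a differentiated domain, 94.4% of edge peaks and 91.1% of partnered edge peaks were at its end, a difference of 3.35 points (interval 1.18 to 5.65), so that among peaks in a domain the order was the opposite there. Of the peaks in an ES domain, 83.2% of edge peaks and 81.5% of partnered edge peaks were at its end, a difference of 1.67 points (interval -2.68 to 6.13). At a differentiated end were 64.7% of edge and 2.18% of outlying peaks, a difference of 62.6 points (interval 60.5 to 64.5), and at an ES end 25.9% of edge and 0.810% of outlying peaks, a difference of 25.1 points (interval 23.3 to 27.0).

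By combination of lists, 851 edge peaks (37.1%) were in a domain of the differentiated list and of none of the other 3. This compares with 31.6% of inner peaks and 18.5% of all OE-high Fbxl19 peaks. A further 612 (26.7%) were in no domain of the 4 lists, against 31.9% of inner peaks and 56.7% of all. Next came 230 in the differentiated and ES lists, 218 (9.50%) in the differentiated, knockdown ES and ES lists, and 132 (5.75%) in all 4. At an end in all 4 lists, and hence in all 5 with OE-high, were 99 edge peaks (4.32%, interval 3.52 to 5.23), where 1.93% of all OE-high Fbxl19 peaks were at an end of those 4. Among the 1579 edge peaks in no ES domain, 94 (4.10% of all edge peaks) sat on an OE-high domain that met an ES domain elsewhere, and 1485 (64.7%) on one that met none, by coincidence the same number as that at a differentiated end. This share is close to that of the OE-high list as a whole, since an ES domain was met by about as many domains with an edge peak as without one (35.0% and 34.7%).

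**Figure D3:**
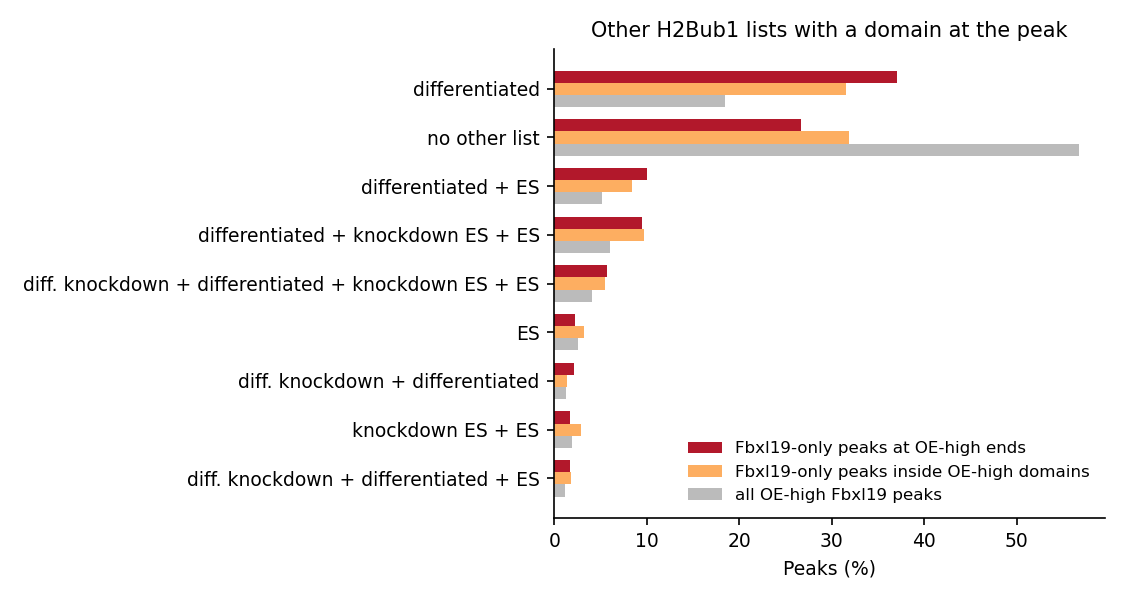
Share of peaks in percent (x axis) by which of the other 4 H2Bub1 lists had a domain at the peak (y axis), for edge peaks (red), inner peaks (orange) and all OE-high Fbxl19 peaks (grey), with the 9 combinations most frequent among edge peaks. Edge peaks in a differentiated domain only make up 37.1%, against 31.6% of inner peaks. Those in no other list make up 26.7%, against 31.9% of inner peaks and 56.7% of all OE-high Fbxl19 peaks.

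Edge peaks at an end in all 5 lists were led in score by chr10:36693815-36695305 (first score 25.3), chr17:13184603-13185803 (23.5) and chr5:37187496-37188260 (22.6). On chromosome 17 the right ends were at 13185199 in OE-high, 13185599 in differentiated knockdown, 13185199 in differentiated, 13185199 in knockdown ES and 13185599 in ES cells. The left ends were spread over many kilobases, at 13136600, 13176600, 13148800, 13165800 and 13168600 in the same order. On chromosome 10 the OE-high, differentiated knockdown, differentiated, knockdown ES and ES domains began at 36694200, 36694200, 36694400, 36694000 and 36694000, and their lengths were 29000, 12000, 28400, 12200 and 10600 bp. The small domain on chromosome 5 ended at 37187999 in all 5 lists, with a length of 4400 bp in OE-high and 2800 bp in ES cells. Edge peaks in no other list were led by chr7:31207027-31207514 (26.9), chr14:70106962-70107569 (24.1) and chr10:12334211-12335075 (21.3), the last at the right end of an OE-high domain of 218800 bp.

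Further inside an ES domain lay 120 edge peaks (5.23%), against 23.3% of inner, 8.08% of partnered edge and 10.1% of all OE-high Fbxl19 peaks. Among these 120 edge peaks the highest first score was 17.7. It belonged to chr10:121533728-121534440, at the right end of the OE-high domain chr10:121524600-121534199, while the ES domain chr10:121531600-121535599 ran past it. The next were chr12:25335792-25337187 (16.9), where the OE-high domain began at 25337000 and the ES domain at 25335400, and chr10:62442783-62443435 (16.6). At that last peak the OE-high domain began at 62443000 and the differentiated domain at the same position, whereas the knockdown ES domain of 253800 bp and the ES domain of 242200 bp spanned it.

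Among the edge peaks that were at an end of another list as well, the OE-high end and the other end could not lie far apart, since the midpoint was within 1000 bp of both. Of these peaks, the end was on the same side as in OE-high in 230 of 231 for differentiated knockdown, in all 1485 for differentiated, in all 348 for knockdown ES and in 593 of 595 for ES cells. Domain ends lie on a grid of 200 bp. Of those on the same side, the OE-high end was at the identical grid position in 53.0% for differentiated knockdown, 61.3% for differentiated, 42.0% for knockdown ES and 41.0% for ES, and within 1 grid step in 85.2%, 89.6%, 70.7% and 77.9%.

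Where the ends of these peaks differed in position, those of the undifferentiated lists were more often further out than further in. The OE-high end lay further in than the ES end in 295 of 593 cases (49.7%, interval 45.6 to 53.8) and further out in 55 (9.27%, interval 7.06 to 11.9). Against knockdown ES it lay further in at 176 of 348 (50.6%, interval 45.2 to 55.9) and further out at 26 (7.47%, interval 4.94 to 10.8). Against the differentiated list both directions were similar, 260 further in (17.5%, interval 15.6 to 19.5) and 314 further out (21.1%, interval 19.1 to 23.3) of 1485. Against differentiated knockdown they were 50 and 58 of 230. The inward offset was not particular to edge peaks. In domains matched between lists as described below, the outward shift of the OE-high end over ES had quartiles of -200 to 0 bp at edge peaks. At partnered edge peaks these quartiles were the same. Over knockdown ES the quartiles were -400 to 0 bp at both, with medians of 0 bp at edge and -200 bp at partnered edge peaks. The midpoint lay a median of 85.2 bp inward of the OE-high end over all edge peaks, and, over the edge peaks at an end of each other list, 94.5 bp inward of the differentiated knockdown end, 64.0 bp of the differentiated end, 228 bp of the knockdown ES end and 214 bp of the ES end. These medians are over different numbers of peaks, and they differ by less than 1 grid step.

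**Figure D4:**
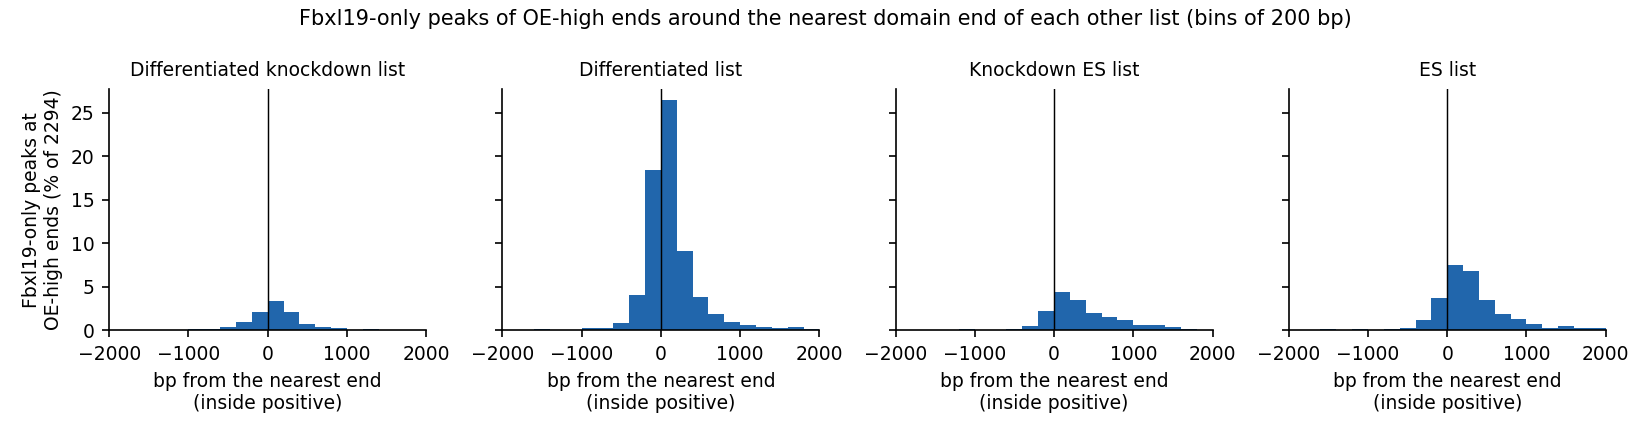
Share of the 2294 edge peaks in percent (y axis) by the distance of their midpoint from the nearest domain end of each other H2Bub1 list in bp (x axis, inside the domain positive, bins of 200 bp). The bin from 0 to 200 bp inward holds 26.4% of edge peaks in the differentiated list, against 7.54% in the ES list, where the next bin inward holds 6.76%.

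The end at the edge peak differed little between lists, and the opposite end differed more. OE-high domains with an edge peak at a single end were matched to a domain of another list where each met only the other. Of 587 such domains matched to ES cells, the end at the edge peak was within 1000 bp of the ES end in 490 (83.5%) and the opposite end in 126 (21.5%). The opposite end moved further in 494 domains (84.2%, interval 80.9 to 87.0), the end at the peak in 74, and both equally in 19. Median outward shift of OE-high over ES was 0 bp at the peak (quartiles -200 to 0 bp) and 7400 bp at the opposite end (quartiles 400 to 21700 bp), so that OE-high domains were longer mainly at the far end. The opposite end lay more than 1000 bp outward in 71.4% and more than 1000 bp inward in 7.16%.

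**Figure D5:**
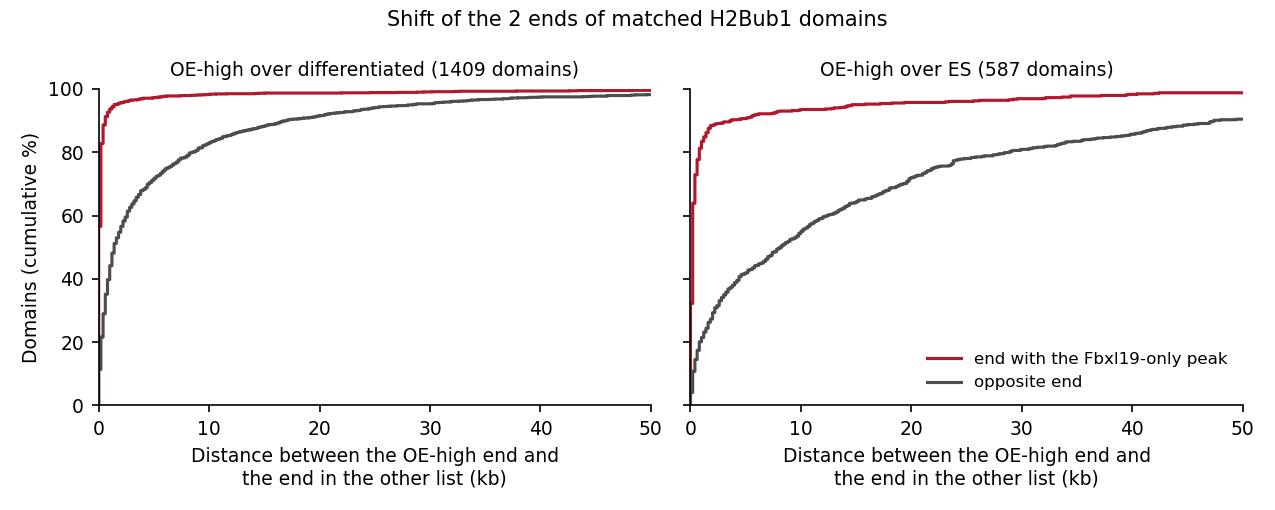
Cumulative share of matched domains in percent (y axis) by the distance in kb between the OE-high end and the end in the other list (x axis, drawn to 50 kb), for the end with the edge peak (red) and the opposite end (grey), against the differentiated list (left, 1409 domains) and the ES list (right, 587 domains). Within 1 kb lie 93.7% of ends with the peak and 44.1% of opposite ends against differentiated, and 83.5% and 21.5% against ES.

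The other lists showed the same order of ends. The opposite end moved further in 79.9% of 278 domains matched to differentiated knockdown (interval 74.7 to 84.4), in 80.7% of 1409 matched to differentiated (interval 78.5 to 82.7) and in 78.0% of 382 matched to knockdown ES (interval 73.5 to 82.1). Its median outward shift was 9100 bp over differentiated knockdown, 400 bp over differentiated and 3900 bp over knockdown ES, and the median at the peak was 0 bp in all 3. Ends with an edge peak were within 1000 bp of the matched ES end in 83.5% of cases, against 37.7% of the ends (706 of 1872) of OE-high domains with no Fbxl19 peak at either end, a difference of 45.8 points (interval 41.8 to 49.4). That difference was 52.0 points for differentiated knockdown (interval 45.9 to 57.6), 37.9 for differentiated (interval 35.8 to 39.9) and 43.2 for knockdown ES (interval 37.9 to 48.0). These differences set 1 end per domain with an edge peak against both ends, pooled, of domains with no Fbxl19 peak. Opposite ends of domains with an edge peak were within 1000 bp in 14.4% for differentiated knockdown, 44.1% for differentiated, 24.3% for knockdown ES and 21.5% for ES. For the same lists in turn, the pooled ends gave 26.0%, 55.8%, 35.1% and 37.7%. Whether 1 end was steadier in domains with no peak was not tested.

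Domains with partnered edge peaks showed the same order of ends. Against ES, the opposite end moved further in 84.2% of domains with an edge peak and in 86.0% of the 394 domains with partnered edge peaks only (difference -1.88 points, interval -6.46 to 2.89). Against knockdown ES it was 78.0% and 87.8% (difference -9.82, interval -15.6 to -3.71). With differentiated knockdown it was 79.9% and 87.4% (difference -7.59, interval -14.1 to -0.845), and with differentiated 80.7% and 78.0% (difference 2.71, interval -0.912 to 6.44). The choice of peaks at OE-high ends could favour a steady end there, so ends were also chosen by a Fbxl19-only peak at the end of the other list, an alternative added after the data were seen. The opposite end then moved further in 87.7% of domains for differentiated knockdown, 78.5% for differentiated, 81.5% for knockdown ES and 84.7% for ES. The end at the peak was less steady under this choice. It was within 1000 bp in 64.3%, 88.9%, 77.4% and 78.3% of domains for these lists in turn. With edge peaks these shares were 78.1%, 93.7%, 78.3% and 83.5%.

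Among matched domains whose ends at the peak coincided exactly, the widest gain at the opposite end was at chr9:65476870-65479166. The OE-high domain chr9:65478400-65675199 began where the ES domain chr9:65478400-65483199 did, and ended 192000 bp beyond it, whereas the differentiated domain ended at 65489199. At chr13:55463853-55464141 the OE-high and ES domains both ended at 55463999 and the OE-high domain began 132200 bp further out. At chr4:148473547-148474131 they both ended at 148473999 and the OE-high domain began 130600 bp further out. On chromosome 4 the differentiated domain, chr4:148342600-148473999, was nearly as long as the OE-high one, chr4:148341600-148473999.

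With the full lists, fewer edge peaks were at a listed end in the knockdown than in its control in both cell states, and with lists of equal size this held for differentiated cells but not for ES cells. At ES ends the share also listed in the knockdown was close to that of all OE-high Fbxl19 peaks. Of the 595 edge peaks at an ES end, 289 (48.6%, interval 44.5 to 52.7) were at a knockdown ES end, 42 further inside a knockdown domain and 264 (44.4%, interval 40.3 to 48.5) in none, where of all 1507 OE-high Fbxl19 peaks at ES ends 48.4% were at an end and 42.5% in none. Of the 1485 at a differentiated end, 211 (14.2%, interval 12.5 to 16.1) were at a differentiated knockdown end and 1268 (85.4%, interval 83.5 to 87.1) in no domain, where of all 2969 OE-high Fbxl19 peaks at differentiated ends 18.3% were at an end and 81.1% in no domain. In the other direction, 5 of the 231 edge peaks at a differentiated knockdown end had no differentiated domain (2.16%, interval 0.706 to 4.98), against 5.10% of all OE-high Fbxl19 peaks at such ends. At knockdown ES ends, 41 of 348 edge peaks had no ES domain (11.8%, interval 8.59 to 15.6), near the 12.6% of all.

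The share of ends also listed in the knockdown was lower for edge peaks than for partnered edge peaks. It was 48.6% of edge and 56.6% of 433 partnered edge peaks in ES cells, a difference of -8.01 points (interval -14.3 to -1.69). In differentiated cells it was 14.2% of edge and 23.6% of 835 partnered edge peaks, a difference of -9.38 points (interval -12.9 to -5.98). Against inner peaks at such ends, the difference was 6.21 points in ES (interval -2.00 to 14.2) and -6.52 in differentiated cells (interval -12.1 to -1.52). These shares move with list length. With each H2Bub1 list limited to its 1090 top-scoring domains, 397 peaks met the rule, of which 30.7% were at a differentiated knockdown, 53.9% at a differentiated, 29.2% at a knockdown ES and 30.0% at an ES end, and the share of ends also listed in the knockdown was 70.6% in ES and 43.5% in differentiated cells. Under that setting the knockdown and ES lists thus did not differ beyond their intervals (24.8 to 34.0 and 25.5 to 34.7).

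Most ES ends at edge peaks were also listed in differentiated cells, which had many more. Of the 595 at an ES end, 495 (83.2%, interval 79.9 to 86.1) were at a differentiated end and 72 (12.1%) in no differentiated domain, where of all OE-high Fbxl19 peaks at ES ends 69.1% were at a differentiated end and 16.1% in no differentiated domain. Inner peaks at ES ends were at a differentiated end in 37.4%, a difference of 45.8 points (interval 38.0 to 53.0), and another 43.3% of them lay further inside a differentiated domain. Inner peaks were chosen away from OE-high ends, so part of this difference follows from how far OE-high and differentiated ends coincide. For partnered edge peaks, which were chosen at OE-high ends too, the difference was -0.871 points (interval -5.52 to 3.91). Of the 1485 edge peaks at a differentiated end, 907 (61.1%, interval 58.5 to 63.6) were in no ES domain, against 56.4% of inner peaks (interval 50.3 to 62.3), 48.7% of partnered edge peaks (interval 45.3 to 52.2) and 56.3% of all OE-high Fbxl19 peaks at differentiated ends.

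The share at an end was highest in the class of edge peaks with the highest first score, but its intervals mostly overlapped those of the other classes. In 4 classes of edge peaks by first score, the share at an ES end was 26.1%, 23.9%, 23.0% and 30.7% from the lowest to the highest class, and at a differentiated end 64.3%, 61.1%, 63.7% and 69.9%. It was 10.6%, 9.60%, 9.25% and 10.8% at a differentiated knockdown end, and 15.7%, 14.1%, 14.1% and 16.7% at a knockdown ES end. In these 2 lists the intervals of the classes overlapped. Peaks of the highest class were also the longest, with median lengths of 712, 745, 759 and 906 bp from the lowest class up. For ES the interval of the highest class (26.9 to 34.6) lay above that of the next class down (19.6 to 26.7). It overlapped those of the second (20.5 to 27.6) and the lowest class (22.6 to 29.9). For differentiated the interval of the highest class lay above that of the second class (65.9 to 73.6 against 57.0 to 65.1). It overlapped those of the third (59.6 to 67.6) and the lowest class (60.2 to 68.2). By length of the OE-high domain, edge peaks on domains over 2000 and up to 10000 bp were at an ES end in 19.3% (interval 15.9 to 22.9) and at a differentiated end in 56.2% (interval 51.8 to 60.6). On domains over 20000 and up to 50000 bp these were 29.5% (interval 26.3 to 32.9) and 69.6% (interval 66.2 to 72.8), and for the 511 edge peaks on domains over 50000 bp they were 26.8% (interval 23.0 to 30.9) and 67.1% (interval 62.9 to 71.2). At a knockdown ES end were 12.5%, 17.7% and 12.9% in these 3 classes. Only 17 edge peaks sat on domains of up to 2000 bp.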

How the data were processed

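Per the submitters' processing notes, the tools were BWA 0.5.9-r16 and MACS and the build was mm9. Track lines of the 5 H2Bub1 lists end in BCP, a caller of broad domains, per the file headers. Their deposited score, of unstated formula, is at least 7.00, and a further deposited column holds the domain length. The authors' 2 Fbxl19 lists have 2 deposited scores each, and the sources used here give neither their caller nor their unit. The Rnf20 list has a deposited MACS score. The OE-high Fbxl19 list was assigned from its name and the titles of the samples, since the descriptions of those samples name the H2Bub1 list, and whether the third OE-high H2Bub1 sample entered its list is unknown.

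Positions are on mm9, counted from 1. Fbxl19 lists were read as counted from 1 and the others from 0. Overlap needed 1 bp. Distances run from the listed midpoint, (start plus end)/2, to listed domain ends. The interval of a difference adds 2 exact intervals in squares. Edge peaks share domains and are not replicates. Regions were named by a written rule: the highest first scores of all edge peaks, by ES state, at an end in all lists and in no other list, those next to the 1000-bp limit, the domain with most edge peaks, and matched domains with a coinciding ES end. Members, rule and comparisons were chosen with earlier results of these data known. Alternatives were other distances, summits, 50% coverage, top 50% of lists, lists of the same size, domains of at least 2000 bp, autosomes, counting from 0 and no partner within 1000 bp. The code was tested on 2000 simulated peaks and found all 900 planted edge peaks. Python 3.11.15, NumPy 2.4.6, SciPy 1.17.1, pandas 2.3.3 and matplotlib 3.10.9 were used. Inputs, genes and sequences were not analysed here.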

Additional observations from a re-analysis of the deposited data

How the results depend on the processing

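No paired analysis was possible because the lists are combined over replicates and no result comes from a test on samples, and for the same reason no replicate could be left out. Of 356 values computed under the alternatives, 317 counted as kept. Shares were kept if within the interval of the value in the report, and the number of edge peaks if within 1.5 times. Differences were kept if their sign stayed and their interval was clear of 0 (of 50% for ends that moved further). A difference whose interval in the report holds 0 was kept if its new interval held 0 too, whatever its sign. The cause of the changes in the other values was not tested, except that a shorter list gives fewer peaks and domains. Lists are given here in the order differentiated knockdown, differentiated, knockdown ES and ES. The opposite end moved further in more than 50% of matched domains in all alternatives, between 77.9% and 87.7%, 75.7% and 82.1%, 73.9% and 81.5%, and 79.2% and 86.5%.

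With 500 bp in place of 1000 bp, 12.8% of edge peaks were at a knockdown ES end and 23.1% at an ES end, and 42.9% of those at an ES end were at a knockdown end. With 2000 bp, 16.9% were at a knockdown ES and 27.9% at an ES end. With 50% of the peak to be covered, 9.17% lay in and 8.84% at an end of a differentiated knockdown domain, 58.8% in and 55.3% at an end of a differentiated domain, and 77.5% of those at an ES end were at a differentiated end. Then the difference to inner peaks in differentiated domains was 2.28 points and that to partnered edge peaks at differentiated ends -3.86, with intervals that hold 0. The top 50% of OE-high Fbxl19 peaks left 1052 edge peaks, 71.3% in and 67.1% at an end of a differentiated domain, with a difference of -1.27 to partnered edge peaks there. The top 50% of each H2Bub1 list left 1241 edge peaks. Of these 8.70%, 58.0%, 16.0% and 23.8% lay in a domain and 8.54%, 54.8%, 13.1% and 22.0% at an end, and 73.3% of those at an ES end were at a differentiated end. There the difference to inner peaks in ES domains changed sign, to 4.64, with an interval above 0, and that to partnered edge peaks at differentiated ends was -1.49. In some other alternatives the difference to inner peaks in ES or knockdown ES domains changed sign too, with intervals that hold 0. With lists of 1090 domains each, 397 edge peaks were left. Of these 32.0%, 56.9% and 36.3% lay in a differentiated knockdown, differentiated and knockdown ES domain, and 30.7%, 53.9%, 29.2% and 30.0% at an end. Of those at a differentiated end 43.5% were at a differentiated knockdown end, and of those at an ES end 70.6% were at a knockdown ES and 62.2% at a differentiated end.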

Other observations

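The domain with the most edge peaks, by number and then length, was the OE-high domain chr6:145159600-145198799, with edge peaks at chr6:145159262-145159951 and chr6:145160005-145160404 on its left and at chr6:145198478-145199258 on its right end. A differentiated domain, chr6:145159600-145200399, began at the same position, and a short knockdown ES domain of 5200 bp, chr6:145194200-145199399, covered the right end. No ES domain was listed there.

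Edge peaks were spread over the autosomes, where they made up 20.4% (chromosome 12) to 29.2% (chromosome 10) of the Fbxl19-only peaks, with a median of 23.9%. Chromosome X had 3 edge peaks among 29 Fbxl19-only peaks and 61 OE-high domains. The share of edge peaks at an end of another list differed between autosomes. It was 3.66% (chromosome 8) to 19.8% (chromosome 1) for differentiated knockdown, 50.7% (chromosome 19) to 72.8% (chromosome 1) for differentiated, 7.41% (chromosome 14) to 27.7% (chromosome 11) for knockdown ES, and 15.1% (chromosome 19) to 41.6% (chromosome 11) for ES cells. These are values of single combined lists, and their cause was not tested.

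A neighbouring OE-high domain within 5000 bp was rarer beyond ends with a Fbxl19 peak than beyond those without. The next domain was within 2000 bp at 18 of 2273 ends with an edge peak (0.792%, interval 0.470 to 1.25). This compares with 1.24% of ends with a partnered peak only (interval 0.698 to 2.04) and 3.46% of ends with no Fbxl19 peak (interval 3.13 to 3.82). Within 5000 bp it was at 3.78% (interval 3.04 to 4.65), 3.49% (interval 2.52 to 4.68) and 6.76% (interval 6.29 to 7.24) of these ends, so ends with an edge and with a partnered peak did not differ beyond their intervals. The median gap to the next domain was 68400 bp at ends with an edge peak, 56400 bp at those with a partnered peak only and 70600 bp at those with none.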
